A study of Arabidopsis thaliana with 41 samples.

Results

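The 32 members are the nuclear genes of Calvin cycle enzymes and of photorespiration, taken from a fixed list of gene identifiers and found in full among the 32865 genes of the deposited expression tables. Of these, 20 belong to the Calvin cycle, counting the 3 CP12 proteins that regulate it and the carbonic anhydrase *CA1*, and 12 belong to photorespiration. The genes of Rubisco itself were left out of the list. All 32 members had enough counts to be tested in the fit of 16 libraries, and 31 of them in the fit of the first label set, where *CP12-3* was too low. *CP12-3*, at no more than 98 counts in a library, passed only with the mutant libraries and is described by its counts.

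The Calvin cycle fixes CO2 in the chloroplast stroma in the light. Its enzymes carboxylate ribulose bisphosphate and reduce the product to triose phosphate with ATP and NADPH. They rebuild the acceptor through a chain of aldolases, phosphatases, transketolases and isomerases. Thioredoxin switches several enzymes of the cycle on in the light, and CP12 holds some of them inactive in the dark. Photorespiration recovers the carbon lost when Rubisco takes up O2 in place of CO2, through a route that runs from the chloroplast to the peroxisome, the mitochondrion and back. Its central step, glycine decarboxylase, releases CO2 and ammonia, and the ammonia is taken up again in the chloroplast.

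RNA was sequenced from pooled rosette leaves of plants grown in long days and harvested in the light, and the leaves of each repeat came from several plants. WT was Col-0. *Atepl1-2* is a double mutant with Cas9-made frameshift deletions in both genes for the EPL1 subunit (*AtEPL1A* and *AtEPL1B*) of NuA4, the complex that acetylates histone H4 and the variant H2A.Z, and its plants are sterile. *Ateaf1-1* carries a deletion that joins the 2 neighbouring genes for EAF1, the platform subunit of NuA4, into 1 chimeric gene with a frameshift, and *glk* carries transposon insertions in *GLK1* and *GLK2*, transcription factors that drive chloroplast development. All 3 mutants are pale green, and each is a single line. The libraries carry 2 kinds of label, which are called the first and the second set here. In the first are WT numbers 5, 7 and 8 with *Atepl1-2* numbers 1, 3 and 4. In the second are 1 WT library with the number 4 (WT 4), *Atepl1-2* libraries again numbered 1, 3 and 4, and 3 replicates each of *Ateaf1-1* and *glk*. What sets the 2 kinds of label apart, and whether equal numbers mark the same plants, is not stated, so p-values measure the spread between these libraries.

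Counts summed to between 22330141 and 39666320 per library, of which chloroplast-encoded genes took between 40.2% and 65.6%. Levels are given as CPM, which is counts scaled to an equal library size with TMM factors, and are compared for one gene across libraries or as sums over the members. Gene positions are those of TAIR10.1. TPM, which is corrected for transcript length but not scaled by TMM factors, is used to set one gene beside another. *GLK1* was at 7.59 to 8.59 CPM in *glk* and at 30.2 to 71.1 in every other library, and *GLK2* did not separate *glk* from the others. The frameshift deletions of *Atepl1-2* leave transcripts in place, so the levels of its target genes check nothing. In *Ateaf1-1* the EAF1 gene *AtEAF1A* was at 6.59 to 9.63 CPM, against 10.9 or more in every other library. The other EAF1 gene, *AtEAF1B*, was at 9.77 to 10.8 CPM there, against 11.6 or more. The leaf markers *RBCS1A*, *RCA* and *LHCB2.1*, the first a gene of the small subunit of Rubisco, were at 534 CPM or more in every library. *PR1*, a pathogen response gene, was at 476 CPM or more in all libraries of *Atepl1-2* and *Ateaf1-1* and at no more than 3.15 in WT and *glk*. The meristem genes *STM* and *KNAT1* were at 0 in all 4 WT libraries and at no more than 0.181 CPM in *Atepl1-2* of the first set, but at 0.377 to 5.31 CPM in all 9 mutant libraries of the second set, so that second-set mutants and WT 4 differ also in this tissue marker. Of 3 vein markers, *XCP1* and *SUC2* fell in *Atepl1-2* and *Ateaf1-1* and none passed in *glk*. The third vein marker, *APL*, was at 9.66 to 12.35 CPM in the first WT set and 9.15 to 12.9 in *Atepl1-2* of that set. In the second set it was at 4.17 in WT 4, 6.29 to 8.18 in *Atepl1-2*, 3.995 to 6.28 in *Ateaf1-1* and 5.05 to 6.12 in *glk*. *XCP1*, a xylem protease gene, was at 11.8 to 13.5 CPM in WT of the first set and 5.42 in WT 4, but at 1.17 to 2.6 in all libraries of *Atepl1-2* and *Ateaf1-1* and at 3.23 to 5.15 in *glk*, and the phloem transporter gene *SUC2* was at 104 or more in WT and at no more than 75.5 in the mutants. Of 3 epidermal markers, *FDH* and *ATML1* fell in *Atepl1-2*, and *FDH* was at 127 to 144 CPM in WT and 34.8 to 55.6 in *Atepl1-2* of the first set, and at 85 in WT 4 and 71.7 to 77.9 in *Atepl1-2* of the second. The third epidermal marker, *PDF1*, was at no more than 0.48 CPM in the first set, WT included. In the second set it was at 4.79 in WT 4 and higher in every mutant library. It was at 5.81 to 8.04 in *Atepl1-2*, 7.78 to 18.2 in *Ateaf1-1* and 16.6 to 23.3 in *glk*. *SAG12*, a senescence gene, was at 4.29 CPM in WT 4 and at no more than 1.21 in every other library. The part of these markers in the results was not tested. In bulk leaf RNA, fewer cells of a type and less RNA per cell cannot be told apart.

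On the CPM scale the second set as a whole was low for the members, and 3 of its libraries stood apart. The members together were at 21070 ± 2356 CPM (SD, n = 3) in the first WT set and 13960 to 16440 in *Atepl1-2* of that set, but at 8224 in WT 4 and 8908 to 9012 in *Atepl1-2* of the second set. TMM factors were 0.612 to 0.698 in the first WT set and 0.883 to 0.988 in *Atepl1-2* of that set. As a share of all counts, without these factors, the members were at 1.26% to 1.64% and 1.38% to 1.57% there. In the second set the share was 0.7% in WT 4 and 0.895% to 1.31% in *Atepl1-2*. It was 1.34% to 1.71% in *Ateaf1-1* and 1.15% to 1.22% in *glk*. The leaf gene *RCA* was at 3987 CPM or more in WT and 3168 to 3437 in *Atepl1-2* of the first set, against 736 in WT 4 and 762 to 1019 in *Atepl1-2* of the second. WT 4, the only WT library there, thus lay near *Atepl1-2* of its own set in these CPM values, but below it in the share of counts. *Ateaf1-1* replicate 2 stood above the other 2 of its group, with the members at 13920 CPM against 10480 and 11340 and *RCA* at 2980 CPM against 1428 and 1669, and it had the lowest share of chloroplast counts, 40.2%. Replicate 4 of *Atepl1-2* in the second set differed from its own group in a way that went with transcript length, more loosely over the members. *GLU1*, with the longest transcript of the members (5417 bases), was at 432, 318 and 116 CPM in replicates 1, 3 and 4, while the short *RPI3* (992 bases) was at 30.4, 35.5 and 62.6 CPM. The log2 ratio of replicate 4 to replicate 1 had a Pearson correlation of −0.55 with log2 transcript length over 31 members and of −0.67 over 10716 genes. The Spearman correlation was −0.40 over these members and −0.66 over these genes. Members of similar length differed, with ratios of −1.76 for *SHM1* (1989 bases) and 0.85 for *AGT1* (2003 bases). Genes of 1 pair of libraries share library and depth and are not independent, so no p-value is attached. Ratios of replicate 3 to replicate 1, which share replicate 1 with those above, gave Pearson correlations of −0.36 over the members and −0.52 over all 10716 genes. WT 4 against the mean of the first WT set gave −0.08 and 0.18. Comparisons below are given also without these libraries where that matters.

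**Figure D1:**
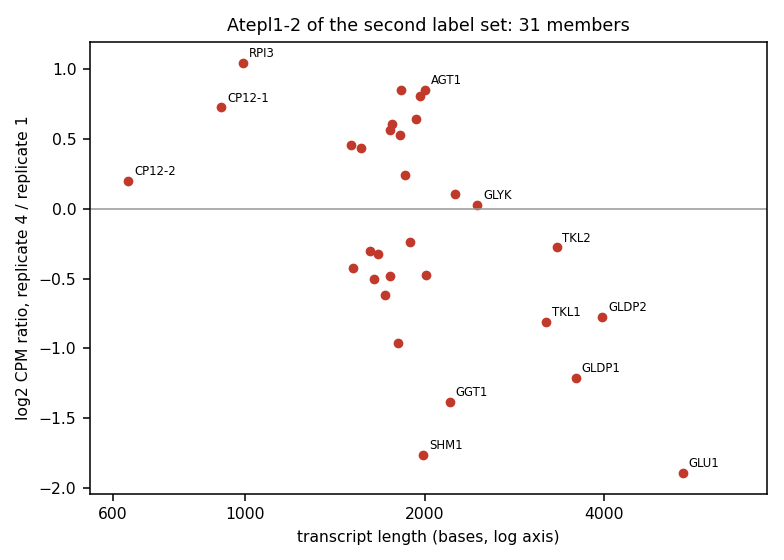
Log2 ratio of the CPM of replicate 4 to replicate 1 of *Atepl1-2* in the second set (vertical axis) against annotated transcript length in bases (log axis), with 1 point for each of 31 members. The ratio is −1.89 for the long *GLU1* and 1.04 for the short *RPI3*. Members of similar length differ, with −1.76 for *SHM1* and 0.85 for *AGT1*.

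The members are spread over the genome, with 9 on chromosome 1, 7 on chromosome 2, 10 on chromosome 3, and 3 each on chromosomes 4 and 5. *GOX1* and *GOX2* are the only neighbouring pair and lie 377 bases apart on chromosome 3. For 6 enzymes 2 or 3 members are near copies. The coding sequences of *GAPA-1* and *GAPA-2* are 85.8% identical, those of *PGK1* and *PGK2* 87.2%, *TKL1* and *TKL2* 85.0%, *GLDP1* and *GLDP2* 85.6%, *GOX1* and *GOX2* 92.0%, and *FBA1* and *FBA2* 84.1%. Reads that match both copies of a pair were divided by an estimate, so levels within a pair are less certain than their sum.

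Promoters of 2 such pairs in which only 1 copy passed the test in *Atepl1-2*, and of a member that rose and a member that fell, were read from the TAIR10.1 genome (RefSeq) as the 250 bases before the annotated transcript start, printed 5′ to 3′ on the strand of the gene. They were searched for the G-box CACGTG, the I-box GATAAG, the GLK-bound letters CCAATC and AGATTCT, the telo-box AAACCCTA, the CCA1 site AAATCT and the evening element AAAATATCT on both strands, and capitals mark the matches. *GAPA-1* (chr3:9794612-9794861, plus strand) holds 1 CCA1 site, and *GAPA-2* (chr1:4394455-4394704, minus strand) none of the 7 motifs. *TKL1* (chr3:22453418-22453667, plus strand) holds 1 CCA1 site, and *TKL2* (chr2:18672247-18672496, plus strand) holds 2 and a G-box. *CP12-2* (chr3:23090694-23090943, plus strand) holds an I-box, and *CFBP1* (chr3:20016587-20016836, plus strand) holds 2 I-boxes and a G-box.
GAPA-1: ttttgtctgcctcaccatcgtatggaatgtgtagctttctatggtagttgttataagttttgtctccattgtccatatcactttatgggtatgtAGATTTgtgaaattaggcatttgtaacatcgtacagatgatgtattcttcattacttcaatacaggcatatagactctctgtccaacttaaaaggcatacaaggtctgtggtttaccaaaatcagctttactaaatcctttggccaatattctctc
GAPA-2: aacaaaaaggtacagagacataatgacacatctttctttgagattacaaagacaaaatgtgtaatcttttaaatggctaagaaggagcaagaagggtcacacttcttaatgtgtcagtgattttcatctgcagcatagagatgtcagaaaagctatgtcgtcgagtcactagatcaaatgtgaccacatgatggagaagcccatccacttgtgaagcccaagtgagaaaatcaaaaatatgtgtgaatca
TKL1: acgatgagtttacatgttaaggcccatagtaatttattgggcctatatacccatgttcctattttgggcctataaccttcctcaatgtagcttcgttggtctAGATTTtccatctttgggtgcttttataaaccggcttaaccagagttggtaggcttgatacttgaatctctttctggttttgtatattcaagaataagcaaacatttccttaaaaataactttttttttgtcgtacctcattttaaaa
TKL2: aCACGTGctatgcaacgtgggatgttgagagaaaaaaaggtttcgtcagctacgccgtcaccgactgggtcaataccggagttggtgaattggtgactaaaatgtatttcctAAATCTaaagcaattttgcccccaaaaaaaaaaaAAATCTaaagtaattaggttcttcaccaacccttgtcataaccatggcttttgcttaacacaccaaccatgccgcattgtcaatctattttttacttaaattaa
CP12-2: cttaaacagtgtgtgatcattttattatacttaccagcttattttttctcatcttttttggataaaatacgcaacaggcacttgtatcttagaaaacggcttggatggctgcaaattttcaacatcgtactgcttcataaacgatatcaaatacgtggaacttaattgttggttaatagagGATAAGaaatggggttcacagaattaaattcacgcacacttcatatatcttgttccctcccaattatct
CFBP1: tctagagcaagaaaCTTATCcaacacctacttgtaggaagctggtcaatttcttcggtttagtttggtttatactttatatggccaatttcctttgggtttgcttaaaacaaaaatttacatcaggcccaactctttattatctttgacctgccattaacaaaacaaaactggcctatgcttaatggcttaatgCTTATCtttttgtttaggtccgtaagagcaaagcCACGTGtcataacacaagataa

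Over all members, the G-box was in 5 of 32 promoters (15.6%, beside 6.49% of 27438 promoters of the same length), namely those of *CFBP1*, *TKL2*, *PRK*, *GGT1* and *GLDP1*, which include members that rose, fell and passed no test. The I-box was in 4 (12.5% beside 12.3%) and CCAATC in 4 (12.5% beside 10.2%). AGATTCT was in 1, that of *PRK* (3.12% beside 6.22%). The CCA1 site was in 6 (18.8% beside 34.4%), and no member held the telo-box or the evening element, found in 4.49% and 2.36% of all promoters. A match is a run of letters and not a shown binding site.

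*Atepl1-2* was compared with WT to see how the loss of EPL1 affects the enzymes of carbon fixation and photorespiration. Of the 11 regeneration members 4 fell and *TKL2* rose, of the 5 of the reduction step 3 fell, and of the regulators *CP12-2* rose. The steps were not compared by a test. In the fit of all 16 libraries with genotype and label set as terms, 9 members fell and 2 rose by edgeR's quasi-likelihood test at an FDR under 0.01 and at least 1.5-fold, beside 16.8% and 18.8% of all 21094 genes tested. The median log2 fold change was −0.29 over the members and 0.05 over all genes. Of the 20 Calvin cycle members 7 fell and 2 rose, and of the 12 photorespiration members 2 fell and none rose. In the first set alone, where WT and *Atepl1-2* each had 3 libraries, 11 members fell and 3 rose, beside 21.8% and 23.3% of 18840 genes, with a median of −0.45 over 31 members.

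Plastid triose phosphate isomerase, *pdTPI* (AT2G21170, chr2:9070734-9074470, minus strand, 10 exons), which interconverts the 2 triose phosphates, showed the largest fall of the members in *Atepl1-2*. *pdTPI* was at 199, 194 and 185 CPM in the 3 WT libraries of the first set and 86.6 in WT 4, against 39.4, 35.7 and 43.8 in *Atepl1-2* of the first set, 34.5, 36 and 47.5 in *Atepl1-2* of the second, 40.8, 42.7 and 43.6 in *Ateaf1-1* and 111, 97.5 and 118 in *glk*. No mutant library of either NuA4 subunit reached the lowest WT library, and *glk* lay above WT 4 but below the first WT set. The log2 fold change was −1.94 ± 0.19 (SE, FDR = 4.7e-07) in *Atepl1-2* and −1.66 ± 0.27 (SE, FDR = 1.4e-04) in *Ateaf1-1*. In *glk* it was −0.31 ± 0.27 (SE, FDR = 0.49).

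The reduction step turns phosphoglycerate into triose phosphate by way of the kinase PGK and the dehydrogenase GAPDH, whose chloroplast form is built from GAPA and GAPB subunits. Its A subunit comes from *GAPA-1* (AT3G26650, chr3:9794862-9797045, plus strand, 5 exons) and *GAPA-2* (AT1G12900, chr1:4392438-4394454, minus strand, 5 exons). *GAPA-2* read 1369, 1247 and 1150 CPM in the 3 WT libraries of the first set and 599.8 in WT 4, against 314, 219 and 338 in *Atepl1-2* of the first set, 213, 256 and 288 in *Atepl1-2* of the second, 262, 399.8 and 269 in *Ateaf1-1* and 356, 427 and 412 in *glk*. Its levels in all 12 mutant libraries lay under those of every WT library. Its log2 fold change was −1.84 ± 0.21 (SE, FDR = 1.7e-06) in *Atepl1-2* and −1.42 ± 0.29 (SE, FDR = 9.9e-04) in *Ateaf1-1*. *GAPA-1* read 1661, 1414 and 1515 CPM in the 3 WT libraries of the first set and 689 in WT 4, against 1093, 1077 and 1231 in *Atepl1-2* of the first set, 752, 814 and 1109 in *Atepl1-2* of the second, 742, 1293 and 848 in *Ateaf1-1* and 635, 727 and 719 in *glk*. *GAPA-1* overlapped with WT 4 in both NuA4 mutants and its log2 fold change in *Atepl1-2* was −0.18 ± 0.21 (SE, FDR = 0.48). As a share of the TPM of both *GAPA* genes, *GAPA-2* held 46.0% to 49.8% in all 4 WT libraries, WT 4 included. The share was 18.6% to 26.1% in 6 *Atepl1-2* libraries, 25.4% to 28.5% in *Ateaf1-1* and 38.7% to 39.9% in *glk*, so no mutant library overlapped WT. This ratio is taken within a library and does not depend on the scaling between libraries.

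*PGK2* (AT1G56190, chr1:21028137-21030684, plus strand, 6 exons) was the lesser of the kinase genes, beside *PGK1* (AT3G12780, chr3:4060920-4063306, minus strand, 6 exons). *PGK2* stood at 100.5, 110.1 and 89 CPM in the 3 WT libraries of the first set and 41.7 in WT 4, against 43, 34.3 and 47 in *Atepl1-2* of the first set, 20.8, 24.8 and 32.5 in *Atepl1-2* of the second, 20.9, 41.1 and 17.3 in *Ateaf1-1* and 23.4, 24.6 and 28.2 in *glk*. *Atepl1-2* of the first set overlapped WT 4 but not the WT libraries of its own set, and all other mutant libraries were under WT 4. The log2 fold change was −1.08 ± 0.23 (SE, FDR = 8.7e-04) in *Atepl1-2*. Its share of the TPM of both *PGK* genes was 6.91% to 8.51% in WT and 4.03% to 5.3% in *Atepl1-2*. *PGK1* stood at 1089, 1078 and 961 CPM in the 3 WT libraries of the first set and 525 in WT 4, against 705, 648 and 791 in *Atepl1-2* of the first set, 461, 512 and 664 in *Atepl1-2* of the second, 444, 588 and 408 in *Ateaf1-1* and 325, 337 and 363 in *glk*. The main kinase *PGK1* had a log2 fold change of −0.35 ± 0.17 (SE, FDR = 0.1) in *Atepl1-2*. *GAPB* (AT1G42970, chr1:16127353-16129895, plus strand, 9 exons), for the subunit that brings redox control to the dehydrogenase, was at 1863, 1535 and 1459 CPM in WT of the first set and 781, 646 and 856 in *Atepl1-2* of that set. In the second set it was at 409 CPM in WT 4 and 422, 454 and 497 in *Atepl1-2*, which is not lower. Its log2 fold change of −0.72 ± 0.21 (SE, FDR = 0.0098) over both sets was lost without any 1 of 8 of the libraries (FDR = 0.015 to 0.054), while in the first set alone it was −1.09 ± 0.18 (SE, FDR = 5.8e-04).

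**Figure D2:**
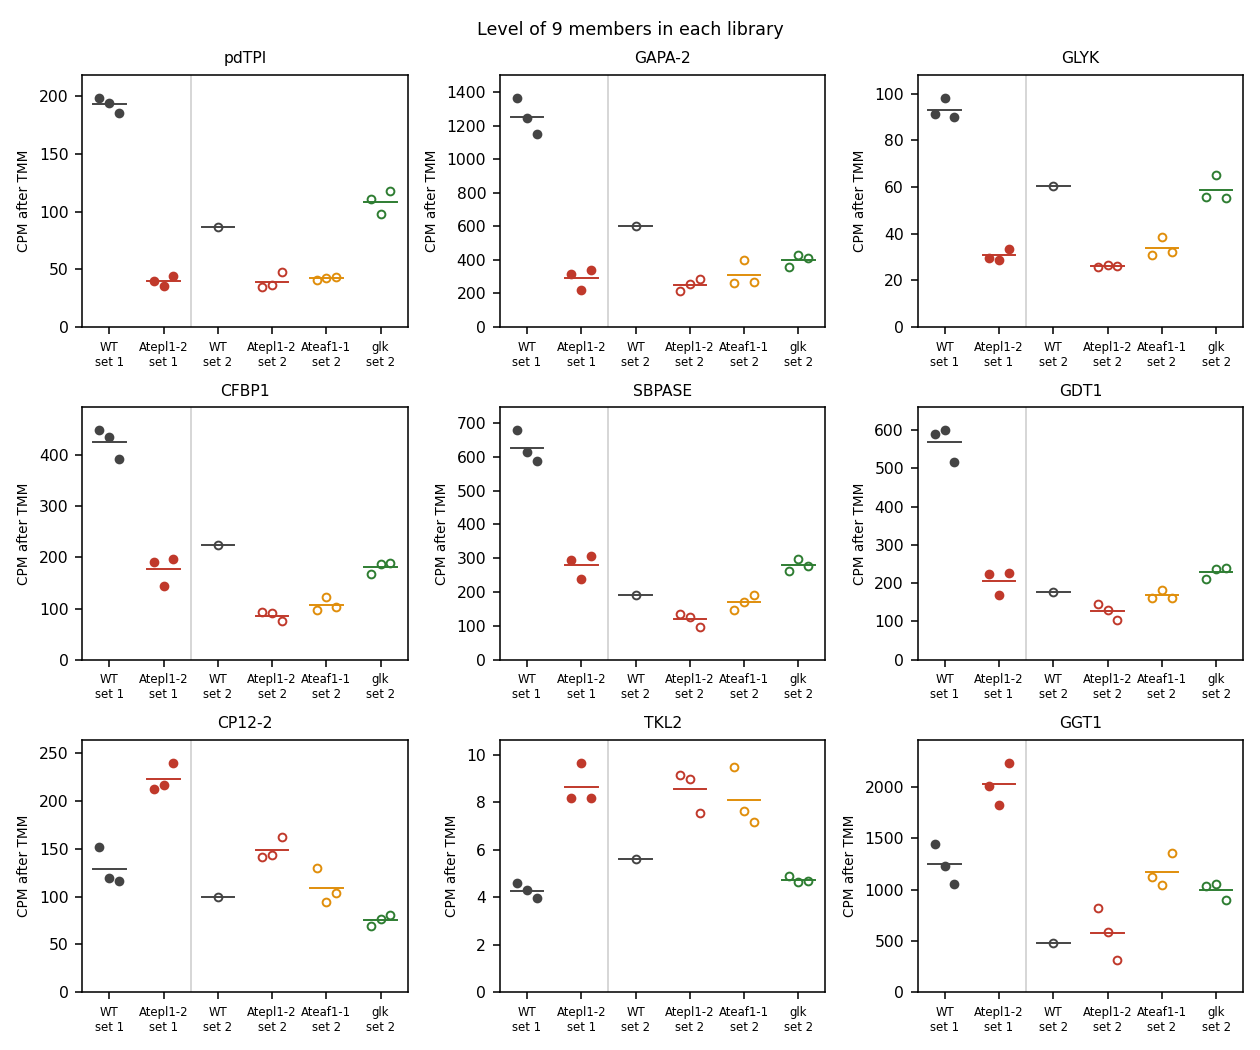
CPM after TMM scaling (vertical axes, each from 0) of 9 members in each of the 16 libraries, grouped by genotype and label set; points are libraries, filled for the first set and open for the second, and lines are group means. *pdTPI*, *GAPA-2* and *GLYK* are lower in all *Atepl1-2* and *Ateaf1-1* libraries than in all 4 WT libraries, whereas *TKL2* is higher.

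Of the phosphatases that make the regeneration chain irreversible, both were lower in *Atepl1-2*, namely *CFBP1* (AT3G54050, chr3:20016837-20018822, plus strand, 4 exons) and *SBPASE* (AT3G55800, chr3:20709294-20711640, plus strand, 8 exons). *CFBP1* was at 448, 435 and 393 CPM in the 3 WT libraries of the first set and 223 in WT 4, against 190.0, 145 and 197 in *Atepl1-2* of the first set, 93, 90.5 and 75.4 in *Atepl1-2* of the second, 97.7, 122 and 103 in *Ateaf1-1* and 167, 187 and 189 in *glk*. The chloroplast fructose bisphosphatase gene *CFBP1* was lower than every WT library in each mutant library, and its log2 fold change was −1.30 ± 0.14 (SE, FDR = 8.9e-07) in *Atepl1-2* and −1.0 ± 0.19 (SE, FDR = 6.3e-04) in *Ateaf1-1*. In *glk* it was −0.25 ± 0.19 (SE, FDR = 0.42). *SBPASE* was at 678, 614 and 588 CPM in the 3 WT libraries of the first set and 191 in WT 4, against 295, 239.7 and 306 in *Atepl1-2* of the first set, 136, 128 and 97.2 in *Atepl1-2* of the second, 147, 172 and 192 in *Ateaf1-1* and 264, 299 and 278 in *glk*. *SBPASE*, for sedoheptulose bisphosphatase, gave −1.0 ± 0.16 (SE, FDR = 5.9e-05) in *Atepl1-2* and −0.42 ± 0.22 (SE, FDR = 0.14) in *Ateaf1-1*, and *Atepl1-2* of the first set, all *glk* libraries and 1 of *Ateaf1-1* lay above WT 4. *RPE* (AT5G61410, chr5:24683606-24686217, minus strand, 10 exons), for ribulose phosphate epimerase, had a log2 fold change of −0.59 ± 0.14 (SE, FDR = 0.0019) in *Atepl1-2*, just past 1.5-fold, and fell short of it without any 1 of 7 libraries (log2 fold change −0.58 to −0.53).

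*RPI3* (AT3G04790, chr3:1313297-1314288, plus strand, 1 exon) encodes the plastid ribose phosphate isomerase. *RPI3* was at 77.3, 74.8 and 77.4 CPM in the 3 WT libraries of the first set and 40.5 in WT 4, against 35, 29.5 and 35.5 in *Atepl1-2* of the first set, 30.4, 35.5 and 62.6 in *Atepl1-2* of the second, 20.8, 29.1 and 22.7 in *Ateaf1-1* and 38.7, 43.7 and 46.9 in *glk*. All *Ateaf1-1* libraries were lower than every WT library, whereas *Atepl1-2* replicate 4 of the second set was above WT 4. The log2 fold change was −1.46 ± 0.34 (SE, FDR = 0.0029) in *Ateaf1-1*, and the FDR rose to 0.012 and 0.011 without its replicates 1 and 3. In *Atepl1-2* it was −0.81 ± 0.25 (SE, FDR = 0.011) over both sets and −1.20 ± 0.12 (SE, FDR = 2.7e-05) in the first set. Without replicate 4 of the second *Atepl1-2* set, the log2 fold change over both sets was −0.93 (FDR = 0.00022), past the threshold.

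The transketolases transfer carbon units between sugar phosphates, and *TKL1* (AT3G60750, chr3:22453668-22457458, plus strand, 7 exons) is the main leaf gene beside *TKL2* (AT2G45290, chr2:18672497-18676484, plus strand, 7 exons). *TKL2* was at 4.62, 4.3 and 3.96 CPM in the 3 WT libraries of the first set and 5.64 in WT 4, against 8.18, 9.66 and 8.17 in *Atepl1-2* of the first set, 9.16, 9.01 and 7.56 in *Atepl1-2* of the second, 9.5, 7.66 and 7.17 in *Ateaf1-1* and 4.9, 4.65 and 4.68 in *glk*. *TKL2* was higher in all 9 libraries of the NuA4 mutants than in all 4 WT libraries, and *glk* overlapped WT. The rise was 0.87 ± 0.14 (SE, FDR = 7.2e-05) in *Atepl1-2* and 0.72 ± 0.18 (SE, FDR = 0.0054) in *Ateaf1-1*, where it was lost without WT replicate 7 or 8 or *Ateaf1-1* replicate 1 (FDR = 0.011 to 0.027). *TKL1* gave −0.39 ± 0.17 (SE, FDR = 0.073) in *Atepl1-2*. On the TPM scale the share of *TKL2* in the pair remained small, at 0.595% to 1.17% in WT, 1.46% to 2.73% in *Atepl1-2* and 1.4% to 1.85% in *Ateaf1-1*.

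The other regeneration members passed no test in *Atepl1-2* or *Ateaf1-1* against WT. The aldolase genes *FBA1* (AT2G21330), *FBA2* (AT4G38970) and *FBA3* (AT2G01140) had log2 fold changes of −0.13, −0.05 and 0.35 in *Atepl1-2*. Phosphoribulokinase, which completes the cycle and is held by CP12 in the dark, is encoded by *PRK* (AT1G32060, chr1:11532199-11534639, plus strand, 5 exons) and gave −0.06. *CA1* (AT3G01500, chr3:194426-198664, minus strand, 9 exons), which hastens the exchange of CO2 and bicarbonate in the stroma, was at 1165, 965 and 949 CPM in WT and 620.5, 476 and 602 in *Atepl1-2* of the first set. In the second set it was at 372 CPM in WT 4 and at 476, 488 and 513 in *Atepl1-2*, in the opposite order. It fell in the first set alone, with −0.86 ± 0.17 (SE, FDR = 0.0019), and was −0.48 ± 0.23 (SE, FDR = 0.09) over both sets.

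CP12 proteins bind GAPDH and phosphoribulokinase into an inactive complex in the dark, and *CP12-2* (AT3G62410, chr3:23090944-23091580, plus strand, 1 exon) is the most abundant of the 3 in these leaves. *CP12-2* was at 152, 119 and 116 CPM in the 3 WT libraries of the first set and 99.7 in WT 4, against 212, 216 and 239 in *Atepl1-2* of the first set, 142, 143 and 162 in *Atepl1-2* of the second, 130.0, 94.5 and 104 in *Ateaf1-1* and 69.3, 77 and 81.1 in *glk*. *CP12-2* was higher in *Atepl1-2* than in WT of the same set in each set, and the second *Atepl1-2* set overlapped the first WT set. The rise was 0.72 ± 0.14 (SE, FDR = 5.2e-04). In *Ateaf1-1* it was 0.24 ± 0.19 (SE, FDR = 0.35), and all 3 *glk* libraries lay under WT 4, with −0.29 ± 0.19 (SE, FDR = 0.34). *CP12-1* (AT2G47400) read 19.6, 64 and 16.9 CPM in *Ateaf1-1*, where replicate 2 was above every WT library, and it passed no test. *CP12-3* (AT1G76560) had 8, 4 and 6 counts in the first WT set, 2 in WT 4, 14, 20 and 8 in *Atepl1-2* of the first set and 29, 20 and 22 in the second. It had 6, 98 and 17 counts in *Ateaf1-1* and 4, 1 and 3 in *glk*, so 1 *Ateaf1-1* library held most of them.

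**Figure D3:**
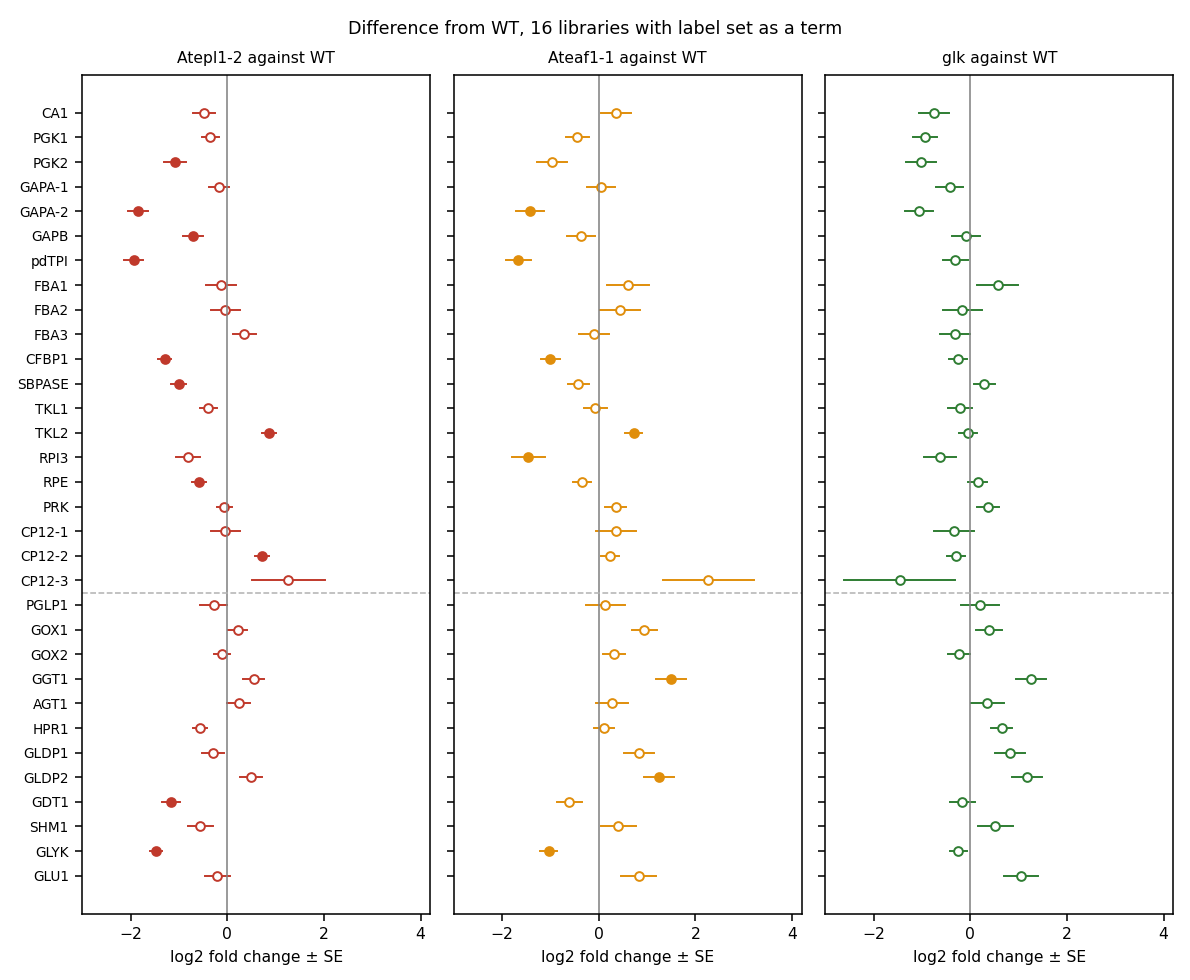
Log2 fold change against WT (horizontal axes) of the 32 members in *Atepl1-2*, *Ateaf1-1* and *glk*, with bars of 1 SE from the edgeR fit of 16 libraries; filled points passed the FDR and fold thresholds, and the dashed line divides the 20 Calvin cycle members (above) from the 12 of photorespiration. *pdTPI*, *GAPA-2* and *GLYK* are filled and left of 0 in both NuA4 mutants, and no point is filled for *glk*.

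Of the photorespiration members, *GLYK* and *GDT1* fell in *Atepl1-2* over both sets, and no peroxisomal member passed in that fit. *GLYK* (AT1G80380, chr1:30217116-30220595, plus strand, 10 exons) encodes glycerate kinase, which returns the carbon to the Calvin cycle in the chloroplast. *GLYK* was at 91.5, 98.3 and 89.9 CPM in the 3 WT libraries of the first set and 60.6 in WT 4, against 29.7, 28.8 and 33.6 in *Atepl1-2* of the first set, 25.6, 26.6 and 26.1 in *Atepl1-2* of the second, 31.1, 38.5 and 32 in *Ateaf1-1* and 55.7, 65.2 and 55.4 in *glk*. Each NuA4 mutant library was lower than each WT library, and *glk* lay around WT 4. The log2 fold change was −1.48 ± 0.13 (SE, FDR = 9.2e-08) in *Atepl1-2* and −1.04 ± 0.18 (SE, FDR = 2.3e-04) in *Ateaf1-1*. *GDT1* (AT1G11860, chr1:4001113-4003748, plus strand, 4 exons), the T protein of mitochondrial glycine decarboxylase, followed in *Atepl1-2*. *GDT1* was at 589, 599.8 and 518 CPM in the 3 WT libraries of the first set and 178 in WT 4, against 224, 168 and 228 in *Atepl1-2* of the first set, 146, 129 and 105 in *Atepl1-2* of the second, 162, 182 and 161 in *Ateaf1-1* and 211, 236 and 241 in *glk*. Its log2 fold change was −1.16 ± 0.19 (SE, FDR = 8.0e-05) in *Atepl1-2*, where the first set overlapped WT 4 but not its own WT. *Ateaf1-1* also overlapped WT 4, with −0.61 ± 0.26 (SE, FDR = 0.074). Without WT 4 that value in *Ateaf1-1* was −1.05 (FDR = 0.0029), past the threshold.

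The P protein of glycine decarboxylase has 2 genes, *GLDP1* (AT4G33010) and *GLDP2* (AT2G26080). *GLDP1* gave −0.29 ± 0.23 (SE, FDR = 0.29) in *Atepl1-2* and *GLDP2* gave 0.49 ± 0.23 (SE, FDR = 0.085), and neither passed. The share of *GLDP2* in the TPM of the pair was 24.0% to 28.4% in WT, 32.5% to 39.4% in *Atepl1-2*, without overlap, 25.4% to 32.8% in *Ateaf1-1* and 28.2% to 30.5% in *glk*. *SHM1* (AT4G37930), for the serine hydroxymethyltransferase that joins 2 glycines to serine, passed no test. It was at 1154 to 1426 CPM in WT and 894.5 to 1234 in *Atepl1-2* of the first set. In the second set it was at 649 CPM in WT 4 and lower, at 497, 298 and 147, in *Atepl1-2*. *GLU1* (AT5G04140), the ferredoxin-dependent glutamate synthase that recovers ammonia, was at 1139, 1178 and 954 CPM in WT and 1241, 921 and 982 in *Atepl1-2* of the first set, with overlap.

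**Figure D4:**
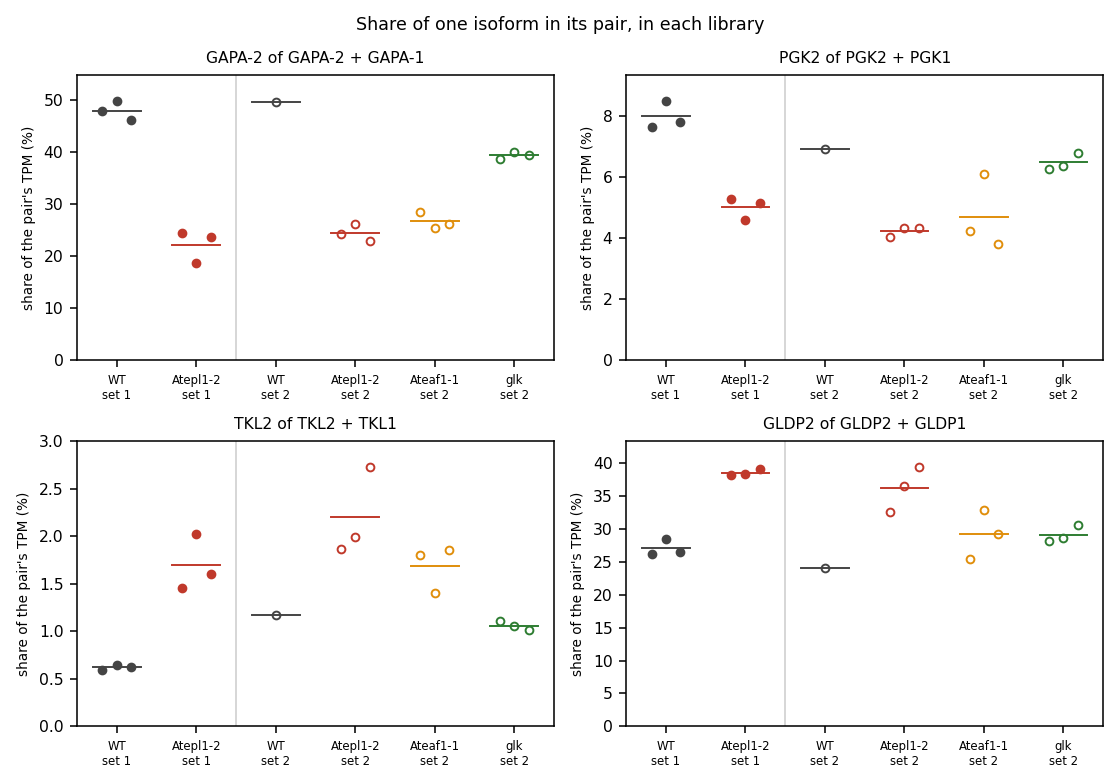
Share of 1 gene in the summed TPM of its pair (vertical axes, percent, from 0) in each of the 16 libraries, for *GAPA-2*, *PGK2*, *TKL2* and *GLDP2*; points are libraries, filled for the first set and open for the second, and lines are group means. *GAPA-2* holds 46.0% to 49.8% in WT and 18.6% to 26.1% in *Atepl1-2*.

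In the peroxisome, glycolate oxidase (*GOX1*, AT3G14420, and *GOX2*, AT3G14415), the aminotransferases *GGT1* (AT1G23310, chr1:8268385-8272021, minus strand, 14 exons) and *AGT1* (AT2G13360), and the hydroxypyruvate reductase *HPR1* (AT1G68010) carry glycolate to glycine and later serine to glycerate. *GGT1* was at 1447, 1233 and 1059 CPM in the 3 WT libraries of the first set and 485 in WT 4, against 2014, 1828 and 2234 in *Atepl1-2* of the first set, 822, 585 and 316 in *Atepl1-2* of the second, 1121, 1050 and 1354 in *Ateaf1-1* and 1035, 1053 and 904 in *glk*. *GGT1* was the highest of the members in *Atepl1-2* of the first set, at 496 TPM. In that set *Atepl1-2* lay above every WT library, with 0.70 ± 0.18 (SE, FDR = 0.0073), a call that was lost without any 1 of 4 of the libraries (FDR = 0.02 to 0.031). Over both sets it was 0.54 ± 0.22 (SE, FDR = 0.051), and 0.65 (FDR = 0.0023) without replicate 4 of the second *Atepl1-2* set. *HPR1* read 620.1, 541 and 519 CPM in WT and 391, 309 and 399.6 in *Atepl1-2* of the first set, with −0.61 ± 0.16 (SE, FDR = 0.0091), a call that was lost without any 1 of the 6 libraries (FDR = 0.013 to 0.038). *GOX1*, *GOX2* and *AGT1* had log2 fold changes between −0.10 and 0.23 in *Atepl1-2* over both sets and passed no test.

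*PGLP1* (AT5G36700), the chloroplast phosphoglycolate phosphatase that opens the pathway, has a copy (AT5G36790) whose coding sequence is 100% identical, so its reads could not be assigned. *PGLP1* took 46.8% to 55.0% of the CPM of both in the first set and 30.9% to 84.7% in the second. The CPM of both together were 245 to 279 in the first WT set, 181 to 233 in *Atepl1-2* of that set and 151 in WT 4. In the second set they were 70.6 to 122 in *Atepl1-2*, 135 to 167 in *Ateaf1-1* and 133 to 156 in *glk*.

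*Ateaf1-1* was compared with WT to see whether loss of the platform subunit moves the same enzymes. It occurs only in the second set, beside 1 WT library, so this fit rests on the label set difference that WT and *Atepl1-2* give. In it 5 members fell (*pdTPI*, *RPI3*, *GAPA-2*, *GLYK* and *CFBP1*) and 3 rose (*GGT1*, *GLDP2* and *TKL2*), beside 11.5% and 13.2% of all genes, with a median of 0.19 over the members and 0.09 over all genes. Without *Ateaf1-1* replicate 2, 6 members fell and 2 rose, with a median of 0.06. On log2(TPM + 1), tested with limma, no member fell and 11 rose, beside 3.02% and 25.1% of all genes. By pathway, 4 Calvin cycle members fell and 1 rose, with a median of −0.09, while 1 photorespiration member fell and 2 rose, with a median of 0.36. The 5 that fell were under WT 4 in all 3 *Ateaf1-1* libraries. *GGT1* had 1.49 ± 0.30 (SE, FDR = 0.001) in *Ateaf1-1*, with all 3 libraries above WT 4 but not above the first WT set. *GLDP2* was at 163, 331 and 203 CPM against 81.1 in WT 4 and 291, 245 and 196 in the first WT set, and its rise of 1.25 ± 0.31 (SE, FDR = 0.005) became 1.01 (FDR = 0.039) without WT 4 and 0.91 (FDR = 0.02) without *Ateaf1-1* replicate 2. With WT 4 and *Atepl1-2* replicate 4 of the second set both left out, 8 members fell and 2 rose, and without WT replicate 8, 1 member rose.

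Against *Atepl1-2*, no member of *Ateaf1-1* passed edgeR's test in either direction, beside 0.777% of all genes lower and 0.678% higher. At an unadjusted p under 0.05 there were 2 lower and 14 higher, beside 14.9% and 14.2% of all genes, and DESeq2 called none lower and 3 higher, beside 4.25% and 2.89%. The difference was above 0 for 27 of the 32 members, with a median of 0.42 over the members and 0 over all genes. *GLDP1* was the nearest to the threshold, with 1.13 ± 0.26 (SE, FDR = 0.016). Replicate 4 of the second *Atepl1-2* set, in which long transcripts were low, is among the libraries of this comparison. Its part in the difference was not tested. Without replicate 1 of that set, 1 member was higher in *Ateaf1-1*, and without *Ateaf1-1* replicate 2 the difference was above 0 for 22 members, with a median of 0.27.

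**Figure D5:**
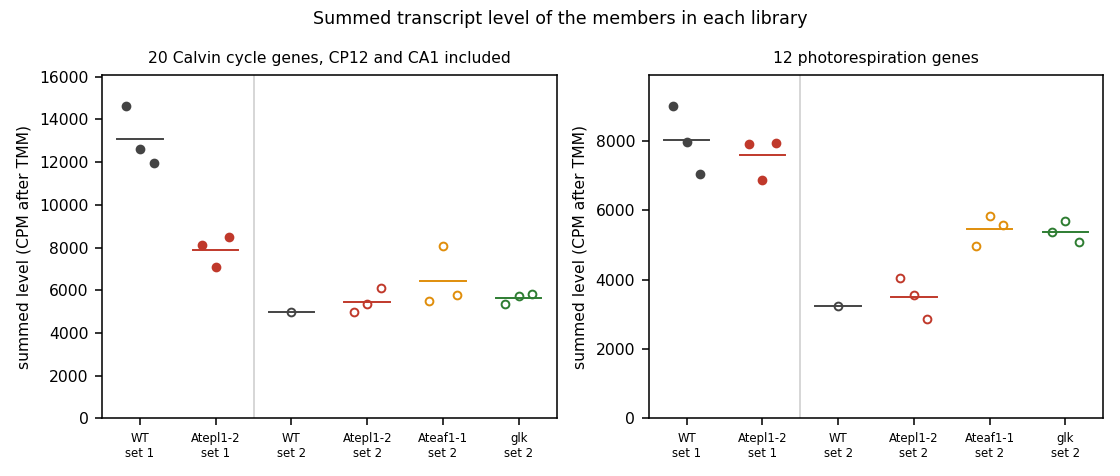
Summed CPM after TMM scaling (vertical axes, from 0) of the 20 Calvin cycle members and of the 12 photorespiration members in each of the 16 libraries; points are libraries, filled for the first set and open for the second, and lines are group means. The first WT set is highest in the Calvin cycle sum at 11960 to 14630, and WT 4 is at 4983.

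The *glk* mutant was compared with WT as a line whose chloroplasts are altered without a change to NuA4. No member passed edgeR's test in *glk*, beside 4.83% of all genes lower and 1.92% higher. At an unadjusted p under 0.05 there were 4 lower and 5 higher, beside 17.3% and 11.1% of all genes, and DESeq2 called 2 lower and 3 higher, beside 7.86% and 3.71%. The median was −0.16 over the members and −0.05 over all genes, −0.30 over the Calvin cycle members and 0.45 over those of photorespiration. *GGT1* was the nearest, with a log2 fold change of 1.26 ± 0.30 (SE, FDR = 0.0103). *PGK1* gave −0.94 ± 0.24 (SE, FDR = 0.015) and *GAPA-2* −1.06 ± 0.29 (SE, FDR = 0.02). Without WT 4, both passed the threshold, with −1.22 (FDR = 0.0048) and −1.46 (FDR = 0.0036), and so did *CA1* with −1.30 (FDR = 0.0044). The share of *FBA1* in the TPM of *FBA1* and *FBA2* was 39.7% to 43.1% in *glk* and 30.7% to 34.1% in WT, without overlap, whereas both NuA4 mutants overlapped WT.

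Direct comparisons of *glk* with the NuA4 mutants, all in the second set or joined to it through the set term, do not rest on WT 4 in the same way. Against *Ateaf1-1*, 3 members passed as lower in *glk* and 4 as higher (*pdTPI*, *GLYK*, *CFBP1* and *SBPASE*), beside 15.6% and 10.2% of all genes. Those lower were *CA1*, *TKL2* and *CP12-3*, but the call of *CP12-3* rested on the 98 counts of *Ateaf1-1* replicate 2 and is not read as a difference. *CA1* gave −1.11 ± 0.27 (SE, FDR = 0.0036) and *pdTPI* 1.36 ± 0.23 (SE, FDR = 1.8e-04). *Ateaf1-1* replicate 2 was high for *CA1*, at 1019 CPM, and without it 1 member was lower and 3 were higher. Without any 1 *glk* library, 1 member was lower. Without *glk* replicate 2 or 3, 2 members were higher. Against *Atepl1-2*, 2 members were lower in *glk* (*CP12-2* and *TKL2*) and 9 were higher, beside 18.9% and 13.4% of all genes, with a median of 0.46 over the members and −0.07 over all genes. The 9 were *pdTPI*, *SBPASE*, *GLU1*, *GLYK*, *HPR1*, *GLDP1*, *CFBP1*, *GDT1* and *RPE*. *pdTPI* had the largest difference of the members, 1.63 ± 0.21 (SE, FDR = 1.0e-05), and *CP12-2* gave −1.01 ± 0.17 (SE, FDR = 1.3e-04). These comparisons share libraries with those against WT, so they are not independent of them.

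The balance between the pathways was set side by side as a ratio. The ratio of the summed TPM of the Calvin cycle members to that of the photorespiration members was 1.96 to 2.05 in the first WT set and 1.88 in WT 4. It was 1.31 to 1.33 in *Atepl1-2* of the first set, 1.27 to 1.70 in *Ateaf1-1*, highest in replicate 2, and 1.24 to 1.43 in *glk*, all below WT. In *Atepl1-2* of the second set it was 1.5, 1.78 and 2.39 for replicates 1, 3 and 4. Replicate 4, in which long transcripts were low, lay above WT. No test was run on this ratio, and the part of transcript length in it was not tested. Being a ratio within a library, it does not change with the scaling.

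The label sets themselves differed for the members in the fit of 16 libraries. The coefficient of the second set against the first was negative for 30 of the 32 members, with a median log2 value of −0.84, while its median over all 21094 genes was 0.05. A test of whether the difference between *Atepl1-2* and WT depended on the set called no member in edgeR, beside 1.6% of all genes. At an unadjusted p under 0.05 it gave 13 members, all with the smaller fall or larger rise in the second set, beside 14.8% of all genes in that direction and 10.9% in the other. The lowest FDR was 0.022, for *GAPB* and *pdTPI*. This term rests on WT 4 alone in the second set.

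The scale of the values changed the picture of the less changed members. On log2(TPM + 1), tested with limma, all genes had a median difference from WT of 0.34 for *Atepl1-2*, 0.39 for *Ateaf1-1* and 0.11 for *glk*, where the CPM fit had 0.05, 0.09 and −0.05. On that scale 3 members fell and 7 rose in *Atepl1-2*, beside 3.48% and 30.7% of all genes, while *GAPB* and *RPE* turned to 0.06 and 0.11 in *Atepl1-2*. *pdTPI*, *GAPA-2* and *GLYK* fell in *Atepl1-2* under every alternative run. In *Ateaf1-1* they had log2 fold changes of −0.79, −0.68 and −0.28 on that scale, with no call.

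Levels between genes were compared per length. In the first WT set *GAPA-1* was the highest member at 304 TPM, followed by *FBA2*, *GAPA-2*, *GAPB* and *SHM1*, and *CP12-3* was the lowest at 0.138 TPM, after *TKL2* and *FBA3*. In *Atepl1-2* of the first set *GGT1* was first and *GAPA-2* and *GAPB* were no longer among the highest 5, and in *glk* *AGT1* was first at 246 TPM.

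The other genes of these pathways, from lists of proteins that act beside the members, were read in the same fits, in which 16.8% of all genes fell and 18.8% rose in *Atepl1-2*, 11.5% and 13.2% in *Ateaf1-1*, and 4.83% and 1.92% in *glk*. No list was tested against other genes. Of 20 other photorespiration genes, 7 fell and none rose in *Atepl1-2* (median −0.57), among them *GS2*, the plastid glutamine synthetase (−1.57), and *GDC-H3*, an H protein of glycine decarboxylase (−1.55). In *Ateaf1-1* 4 fell and 1 rose, namely *GDC-H1* (−1.27) and *GDC-H3* (−1.26) among the falls and the catalase gene *CAT2* (2.06). In *glk* *CAT2* (2.11) and *GGT2*, the second glutamate:glyoxylate aminotransferase (1.65), rose and none fell. Of 7 genes for redox control and triose phosphate export, 6 fell in *Atepl1-2* (median −0.94) and 5 in *Ateaf1-1* (median −1.10), with *TRXF1*, a thioredoxin f that activates the phosphatases, at −1.16 and −1.69, and none passed in *glk*. *NTRC*, a plastid thioredoxin reductase, gave −1.13 in *Atepl1-2*, and *FTRA2*, a subunit of ferredoxin-thioredoxin reductase, gave −1.64 in *Ateaf1-1*.

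Of 18 isoforms of the same enzymes that act outside the cycle, 7 fell and 2 rose in *Atepl1-2*, 6 fell and 1 rose in *Ateaf1-1*, and 1 fell in *glk*. *cFBP2* (−1.62) and *RPI4* (−1.34) were the largest falls in *Atepl1-2*, and *GAPCP1*, a plastid glycolytic dehydrogenase (2.01), and *RPI1* (1.79) the rises. In *Ateaf1-1* *FBA7* fell (−1.68) and *GAPCP1* rose (1.56), and in *glk* the gene of the cytosolic fructose bisphosphatase fell (−0.95). Of 5 other beta carbonic anhydrases, *BCA5* fell and *BCA3* and *BCA6* rose in *Atepl1-2* (−1.30, 2.82 and 0.95), and 1 fell and 2 rose in *Ateaf1-1*, while none passed in *glk*.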

How the data were processed

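RNA-seq was analysed in 16 libraries of 4 genotypes and 2 label sets, grouped by the genotype in their labels. The authors trimmed reads with BBDuk, quantified them with Salmon against Araport11 transcripts with bias correction, and deposited estimated counts per gene as whole-number counts, without normalization; the version, 0.13.1, is from the submitters' processing notes. A table of TPM per gene was deposited by the authors beside the counts. Because the counts were estimated, reads of near-identical genes were divided by a model. Sequencing depth is given in the report as a range over the libraries and limits low members such as *CP12-3*. It was 22330141 to 30781762 counts in the first set and 36533765 to 39666320 in the second.

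The count tests used edgeR 4.0.16 in R 4.3.3. Low genes were removed by filterByExpr by genotype, libraries were scaled by TMM, and all 16 were fitted with genotype and label set as terms (21094 genes, biological coefficient of variation 0.25). The first set was also fitted alone (6 libraries, 18840 genes, 0.158). Genes passed at a Benjamini-Hochberg FDR under 0.01 over all genes tested and a change of at least 1.5-fold, after the study's thresholds. The study's own limma fit on expression values was replaced by the count test. The fitting step was tested on simulated counts with known changes.

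Members and gene lists were chosen with earlier results of these data known. All members were described, with values by library for those that passed a comparison with WT, and at most 2 falls and 2 rises were named for each other list and comparison with WT. Shares within gene pairs and length relations are descriptions without a test. Sequences and annotation came from the RefSeq TAIR10.1 genome. The expression tables carry no coordinates, and the labels name TAIR10.

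Alternatives tried were size factors from DESeq2 1.42.0 and its Wald test, no filter, limma 3.58.1 as voom and on log2(TPM + 1) and log2(TPM + 0.1), a mean TPM of at least 1, an FDR under 0.05, organelle genes left out, no set term (13 libraries), the second set alone, only the 2 genotypes compared, a replicate block, and each library left out. Leaving out WT 4 and *Atepl1-2* replicate 4 of the second set together, and alternatives for isoform shares, were chosen after seeing the data. Summaries used Python 3.11.15, pandas 2.3.3, numpy 2.4.6, Biopython 1.88 and matplotlib 3.10.9. The ChIP-seq mapping table was not used here.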

Additional observations from a re-analysis of the deposited data

How the results depend on the processing

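Main counts in the report are members lower and higher at an FDR under 0.01 and 1.5-fold; alternatives that moved a count by over 1.5 times follow. On log2(TPM + 1), *Atepl1-2* against WT gave 3 lower and 7 higher, *Ateaf1-1* 0 and 11, *glk* against *Ateaf1-1* 5 and 1, *glk* against *Atepl1-2* 4 and 3, and the first set alone 4 and 7. On log2(TPM + 0.1) these were 4 and 8, 0 and 13, 5 and 1, 4 and 3, and 4 and 8, and 1 member rose in *glk* against WT. In the second set alone, 4 fell and 0 rose in *Atepl1-2*, and 1 fell and 0 rose in *Ateaf1-1*. Without a set term, 1 rose in *Atepl1-2*, 11 fell and 1 rose in *Ateaf1-1*, and 4 fell in *glk*. With only the genotypes compared, 2 fell and 0 rose in *Ateaf1-1* and 7 rose in *glk*. With WT 4 and *Atepl1-2* replicate 4 of the second set left out, 8 fell in *Ateaf1-1*, and 3 fell and 1 rose in *glk*. At an FDR under 0.05, 5 rose in *Ateaf1-1*, 3 fell and 3 rose in *glk*, 4 were lower and 14 higher in *glk* than in *Atepl1-2*, and 6 were higher in *Ateaf1-1* than in *Atepl1-2*. DESeq2 gave 2 lower and 3 higher in *glk*, 4 lower in *glk* than in *Atepl1-2*, and 3 higher in *Ateaf1-1* than in *Atepl1-2*. DESeq2's size factors and a mean TPM of at least 1 each gave 1 higher in *glk*. Causes were not tested.

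Leaving out 1 library at a time gave 7 to 10 lower and 2 to 3 higher in *Atepl1-2*, 4 to 7 and 1 to 4 in *Ateaf1-1*, and 0 to 3 and 0 to 0 in *glk*, where 3 came without WT 4. It gave 1 to 3 lower and 2 to 4 higher in *glk* against *Ateaf1-1*, 2 to 2 and 8 to 11 against *Atepl1-2*, 0 to 0 and 0 to 1 for *Ateaf1-1* against *Atepl1-2*, and 10 to 10 and 2 to 3 in the first set. 

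Some single members turned direction. In *Atepl1-2*, *GAPB* became 0.057 on log2(TPM + 1), 0.059 on log2(TPM + 0.1) and 0.17 in the second set alone, *RPE* 0.11 on both TPM scales, and *PRK* 0.66 on log2(TPM + 0.1). In *Ateaf1-1*, *HPR1* became −1.27 without a set term. In the first set, on log2(TPM + 1) and log2(TPM + 0.1), *GOX1* became 0.70 and 0.70, *HPR1* 0.085 and 0.086 and *GLU1* 0.65 and 0.66, and *AGT1* became 0.63 on the latter. The *TKL2* share of *glk* minus WT was −0.11 percentage points in the second set alone and 0.30 over all. Of the results for single members over all settings, 14 changed direction where at least 1 of the 2 fits made a call. Another 170 changed direction by at least 1 SE with no call in either fit. With the direction unchanged, 101 gained a call and 98 lost theirs. A further 2093 were counted as the same, which includes any change of direction under 1 SE without a call.

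With a replicate block in the second set, 1 member was lower and 4 higher in *glk* than in *Ateaf1-1*, 3 lower and 12 higher than in *Atepl1-2*, and 0 in either direction differed between *Ateaf1-1* and *Atepl1-2*. Deviations of same-numbered *glk* and *Ateaf1-1* libraries correlated at 0.037, 0.179 and −0.117. *Atepl1-2* number 1 gave 0.344 with *glk* and 0.355 with *Ateaf1-1*, and number 3 gave 0.043 and −0.147. Same-numbered libraries of the 2 *Atepl1-2* sets gave 0.291, −0.108 and 0.345, and number 1 of the first set gave 0.45 with number 3 of the second. With these mixed values the numbers were not taken to pair the libraries. The fit of 16 libraries treated all *Atepl1-2* libraries as separate.

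The limits are those of the design. The second set has 1 WT library and was low on the CPM scale for most members. Every comparison of *Ateaf1-1* or *glk* with WT leans on that library and on a set difference estimated from WT and *Atepl1-2*. For these mutants, genotype is separated from the label set only through those libraries, with low precision. Levels of near-identical gene copies are estimates, and *CP12-3* had too few counts for a level.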
